A study of Xenopus laevis with 51 samples.

Results

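The comparison set the whole eye 3 days after optic nerve crush (ONC) against the whole eye of surgically naive frogs, with 3 libraries in each group. These 6 libraries were picked by their titles from the 51 libraries and 17 conditions of the study, of which 21 libraries and 7 conditions are eyes. All frogs were albino, unsexed Xenopus laevis juveniles of 1 to 3 months after metamorphosis from a single supplier, and each library holds the pooled RNA of 6 eyes that were homogenised straight after dissection. The crushed group had a forceps crush of the right optic nerve, made within the orbit. Surgery was done under anaesthesia, and operated frogs were afterwards kept in water with the antibiotic gentamicin. The naive frogs had no surgery, and the authors do not say that they were kept in gentamicin. A further 3 libraries hold the contralateral, unoperated eyes at 3 days, and they are given beside the results because they come from the frogs with a crushed right nerve while their own nerve was spared. A whole eye contains retina, pigment epithelium, lens, cornea, sclera and attached tissue, so the neurons whose axons were crushed are a small part of each library.

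The optic nerve is made of the axons of retinal ganglion cells (RGCs), the only neurons that carry signals out of the retina. A crush cuts these axons while the cell bodies stay in the eye. Frogs regrow the axons and recover vision, whereas in adult mammals most axotomised RGCs fail to regrow an axon and many die. In both, axotomy is known to be followed by stress and growth programs in the injured neurons, by reactions of Müller glia, and by the entry of blood-borne myeloid cells.

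The libraries did not all resemble each other. Crushed replicates 1 and 3 and contralateral replicate 3 carry a letter B in their names, which the labels do not explain, and no naive library does. Crystallins, the lens proteins, took 46, 25 and 44.8% of the summed fragments per kilobase of transcript and sequencing depth (FPKM) in crushed replicates 1, 2 and 3. They took 32.3%, 25.8% and 44.1% in contralateral replicates 1, 2 and 3, and 33% to 33.7% in naive libraries. The FPKM of 1 read, estimated from entries under 0.15 FPKM, was 1.82 and 1.49 times that of naive replicate 1 in crushed replicates 1 and 3. It was 0.946 times in crushed replicate 2 and 0.871 to 1 times in naive libraries. However, fewer entries were at 0 in crushed replicates 1 and 3 (336 and 319) than in crushed replicate 2 (658) or naive libraries (1046 to 1188). Whether the libraries with letter B hold fewer reads therefore stays unknown. The mean distance to the naive libraries was 0.472, 0.389 and 0.546 in crushed replicates 1, 2 and 3, against 0.234 to 0.246 among naive libraries (root mean square difference of log2 values). Letter B and the crush are therefore partly confounded. The count of calls in each gene list is therefore given also for crushed replicate 2 alone against the naive libraries, and for a fit with the letter as a covariate that includes the contralateral libraries. With crushed replicate 2 alone the spread comes from the naive libraries only, and the single crushed library is assumed to vary as they do.

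Of 22096 gene entries tested, 1412 (6.39%) were called differentially expressed at an adjusted p of at most 0.05, of which 575 (2.6%) were higher and 837 (3.79%) lower in crushed than in naive eyes. The files list the 2 homeologous copies of the tetraploid frog genome, and close paralogs, as separate entries under 1 human symbol, and the read share of near-identical copies is uncertain. The call tests a difference in log2(FPKM + 0.5), and the smallest absolute difference called was 0.35. Over all tested entries the median difference was -0.04. The counts of calls in each gene list below stand beside these shares of 2.6% higher and 3.79% lower among all tested entries. With crushed replicate 2 alone, 1163 entries (5.36%) were called, 347 higher (1.6%) and 816 lower (3.76%). With the letter as a covariate, 1457 (6.59%) were called, 480 higher (2.17%) and 977 lower (4.42%). Of the 1412 entries, 505 were called in the same direction in both of these fits and none in the opposite direction. The number of calls moved with single libraries, to 5960 without crushed replicate 2, to 429 and 679 without crushed replicates 1 and 3, and to 271, 227 and 194 without naive replicates 1, 2 and 3.

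For every called entry all 3 crushed values lay outside the naive range, as they did for 33.6% of all tested entries (14.6% above and 19.1% below). Tested directly, crushed eyes differed from contralateral eyes in 42 of 22078 entries (0.19%), 34 higher (0.154%) and 8 lower (0.0362%), and contralateral eyes differed from naive eyes in 22 of 21598 (0.102%), 2 higher (0.00926%) and 20 lower (0.0926%), in a comparison that shares the naive libraries with that of the crushed eyes. Since whole eyes were pooled, fewer cells of a type and less RNA per cell cannot be told apart in any of the values below. The naming rule gave 122 entries, of which 120 were called. Of these, 39 were called in both letter B fits and whichever single library was left out, and these are named below as entries that kept their call.

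Cytokine signalling carried the largest rise. Leptin (LEP), a cytokine-like hormone that signals through a JAK-STAT receptor, was at 13.4, 12.6 and 14.5 FPKM in crushed eyes, against 0.0761, 0.0806 and 0.208 FPKM in contralateral eyes and 0.0788, 0.0684 and 0 FPKM in naive eyes. The groups were separated by far more than their spread, and the log2 difference was 4.67 ± 0.14 (SE, adjusted p = 2.33e-05). The gene model behind this entry lies on scaffold 000104110 of assembly JGIv7b, from 1273532 to 1280399 on the plus strand. The second LEP entry was at 5.41, 6.98 and 8.48 FPKM in crushed eyes, against 1.001, 1.06 and 1.52 FPKM in contralateral eyes and 2.42, 7.001 and 5.404 FPKM in naive eyes. The crushed and naive values overlap, and the contralateral values are below every naive value. It was not called between crushed and naive eyes (log2 difference 0.54, adjusted p = 0.324).

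SOCS3, an inhibitor that is induced by and shuts off JAK-STAT signalling, rose in all 4 of its entries. Its most changed entry was at 8.94, 8.77 and 5.55 FPKM in crushed eyes, against 0.972, 1.42 and 1.82 FPKM in contralateral eyes and 2.599, 2.18 and 3.18 FPKM in naive eyes (log2 difference to naive 1.37 ± 0.21, adjusted p = 0.0141). Without naive replicate 2 its adjusted p was 0.0656, and it also missed the threshold without crushed replicate 1 or naive replicate 1. Of 51 tested entries of leptin, JAK-STAT and SOCS genes, 5 rose and 0 fell, beside 2 that were lower at an unadjusted p under 0.05 in limma. The list's median log2 difference was 0.04, and among all tested entries 2.6% were higher and 3.79% lower. The 5 were LEP and the SOCS3 entries, and 6 entries rose with the letter as a covariate and 5 with crushed replicate 2 alone. The signalling core of the list was not called: STAT3 averaged 7.36 FPKM in crushed and 5.69 FPKM in naive eyes in its more abundant entry (adjusted p = 0.115), JAK2 8.37 and 8.09 FPKM (adjusted p = 0.866) and IL6ST, the shared receptor subunit of the interleukin-6 family, 12.4 and 11.7 FPKM (adjusted p = 0.656).

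Among transcription factors of the axotomy response, ATF3 and DDIT3 rose most. ATF3, a stress-induced member of the ATF/CREB family and a common marker of axotomised neurons, was at 11.01, 18.97 and 14.6 FPKM in crushed eyes, against 1.69, 1.71 and 1.503 FPKM in naive eyes (log2 difference 2.81 ± 0.19, adjusted p = 0.00104). Its other entry was at 21.5, 29.4 and 24.7 FPKM in crushed and 3.37, 3.53 and 3.68 FPKM in naive eyes. In contralateral eyes ATF3 was at 0.649, 0.805 and 1.31 FPKM in its first entry, below every naive value. That difference between contralateral and naive eyes was not called (adjusted p = 0.245 by limma). Its other entry was at 2.26, 2.2 and 3.74 FPKM in contralateral eyes, with replicate 3 above every naive value. DDIT3, also called CHOP, a factor of the integrated stress response, was at 19.97, 24.9 and 26.3 FPKM in crushed and 6.25, 5.596 and 5.498 FPKM in naive eyes (log2 difference 1.94 ± 0.13, adjusted p = 0.00095). Contralateral eyes had 3.89, 3.87 and 4.995 FPKM in this DDIT3 entry, below the naive range, but this difference was not called (adjusted p = 0.249 by limma). In the other DDIT3 entry contralateral eyes had 2.28, 2.75 and 2.25 FPKM, which overlap the 2.12, 2.47 and 2.03 FPKM of naive eyes.

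Other early response genes were called too. ARC, an activity-regulated gene of synapses, was at 27.8, 24.5 and 39.8 FPKM in crushed and 5.74, 6.14 and 6.54 FPKM in naive eyes (log2 difference 2.2 ± 0.17, adjusted p = 0.00146), and contralateral eyes were also above the naive range at 6.97, 9.26 and 12.5 FPKM. JUND, a subunit of the AP-1 factor, was at 32.9, 32.9 and 37.4 FPKM in crushed and 14.96, 14.6 and 17.4 FPKM in naive eyes (log2 difference 1.11 ± 0.11, adjusted p = 0.0029). ARC, JUND, ATF3 and DDIT3 kept their calls. SOX11, a factor linked to regrowth of RGC axons in mammals, was at 5.902, 9.09 and 9.19 FPKM in crushed and 4.72, 3.59 and 4.52 FPKM in naive eyes, a difference of 0.83 ± 0.19 (adjusted p = 0.0452, and 0.158 without naive replicate 2). Contralateral eyes had 5.798, 9.16 and 3.13 FPKM in this SOX11 entry, which overlap the crushed values. Of 2 tested SOX11 entries 1 was called. KLF2, a zinc finger factor of endothelial and other cells, fell to 5.88, 5.17 and 6.21 FPKM in crushed eyes, against 13.9, 11.9 and 12.8 FPKM in naive eyes, but contralateral eyes were as low at 5.12, 6.97 and 7.08 FPKM.

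The immediate early and AP-1 list had 7 entries higher and 2 lower of 39 tested, with a median of -0.07, 9 higher and 4 lower with crushed replicate 2 alone, and 8 higher and 4 lower with the letter as a covariate. The 7 were both entries each of ATF3 and JUND, and 1 entry each of ARC, FOSL1 and MYC. JUN, the classical axotomy-induced AP-1 subunit, was not called in any of its 4 entries, although the most abundant averaged 20.7 FPKM in crushed and 13.2 FPKM in naive eyes (adjusted p = 0.0962). The more abundant FOS and EGR1 entries, whose products are early and transient, averaged 10.1 and 6.52 FPKM in crushed eyes, against 12.9 and 5.71 FPKM in naive eyes, and neither was called. In the list of regeneration transcription factors, which shares ATF3 and JUN, 6 of 32 tested entries rose and 3 fell (median -0.02), with 7 and 1 for crushed replicate 2 alone and 8 and 1 with the covariate. The falls were CEBPD and 2 entries of EBF3, a factor of developing RGCs. Amino acid stress genes driven by ATF4 stand beside 2.6% higher and 3.79% lower among all tested entries. Of their 39 tested entries the 2 of DDIT3 rose, MTHFD2 and SLC7A11 fell in 1 entry each, and the median was 0.03. Of these entries 3 rose and 2 fell with crushed replicate 2 alone, and 4 rose and 7 fell with the covariate.

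Growth-associated genes rose in part. STMN4, a neuronal protein of the stathmin family that binds tubulin, was at 85.2, 82.3 and 88.5 FPKM in crushed eyes, against 25.5, 22.95 and 21.2 FPKM in contralateral eyes and 22.7, 20.1 and 19.6 FPKM in naive eyes. The 3 crushed values differed by less than 7 FPKM from each other, and the log2 difference to naive was 2.01 ± 0.09 (adjusted p = 0.000169). GAP43, a growth cone protein of regrowing axons, was at 82.1, 125 and 111 FPKM in crushed and 38.3, 38.4 and 41.6 FPKM in naive eyes (log2 difference 1.39 ± 0.15, adjusted p = 0.0047). Its second entry was at 61.1, 72.5 and 71.6 FPKM in crushed and 44.3, 50.6 and 46.9 FPKM in naive eyes (log2 difference 0.53, adjusted p = 0.0309). TMSB4X, which binds actin monomers, was at 189, 119 and 239 FPKM in crushed and 68.2, 66.7 and 69.6 FPKM in naive eyes, and contralateral replicate 3 lay within the crushed range with 145 FPKM. Its adjusted p was 0.0191, and 0.0879 without naive replicate 2.

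Of the 61 tested entries for axon growth and cytoskeleton, 8 rose and 7 fell, with a median of 0.08, 8 rose and 9 fell with crushed replicate 2 alone, and 12 rose and 7 fell with the covariate. INA, the neuronal intermediate filament internexin, accounted for 4 of the 7 falls. One INA entry was at 1.06, 1.07 and 1.07 FPKM in crushed eyes, against 6.53, 12.02 and 3.99 FPKM in contralateral eyes and 6.04, 4.19 and 4.95 FPKM in naive eyes (log2 difference -1.81 ± 0.16, adjusted p = 0.00202). Another was at 49.7, 53.9 and 55.5 FPKM in crushed and 95.8, 88.8 and 89.9 FPKM in naive eyes. A further INA entry moved the other way, at 6.15, 8.599 and 7.73 FPKM in crushed and 3.61, 4.23 and 4.401 FPKM in naive eyes, so the copies under this symbol did not change together. ALCAM, an adhesion molecule of RGC axons, and DPYSL5 accounted for the other falls. Other growth-associated proteins with high levels were not called: STMN2 averaged 185 FPKM in crushed and 150 FPKM in naive eyes in its more abundant entry (adjusted p = 0.166), BASP1 314 and 264 FPKM (adjusted p = 0.23) and L1CAM 38.2 and 35.4 FPKM (adjusted p = 0.746).

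**Figure D1:**
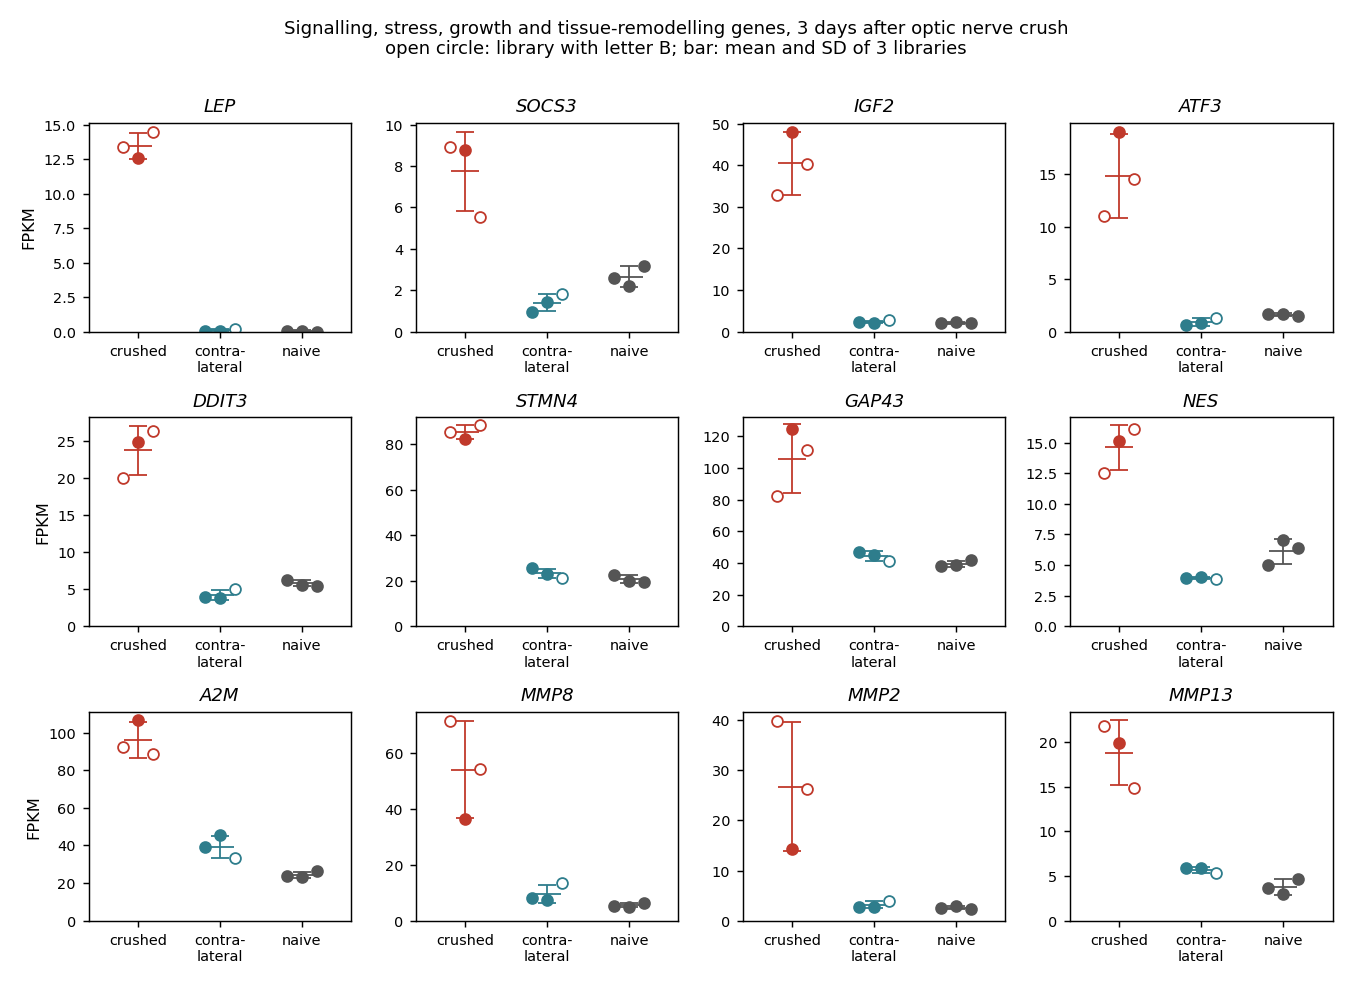
FPKM of 12 genes in each library of the crushed, contralateral and naive eyes at 3 days (1 entry per gene, linear axis from 0), with open circles for libraries with letter B and bars for the mean and SD of 3 libraries. All 3 crushed values lie above all contralateral and naive values in each of the 12 genes, as for LEP with at least 12.6 FPKM in crushed eyes and at most 0.208 FPKM in the others.

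Among secreted factors, insulin-like growth factor 2 (IGF2), a growth factor for many tissues, had the second largest rise. It was at 32.96, 47.96 and 40.3 FPKM in crushed eyes, against 2.27, 2.12 and 2.72 FPKM in contralateral eyes and 2.04, 2.28 and 1.98 FPKM in naive eyes (log2 difference to naive 3.96 ± 0.15, adjusted p = 5.85e-05). This entry lies on scaffold 000074352 of JGIv7b, from 6979929 to 7016937 on the minus strand. A second entry rose as well, to 5.26, 9.795 and 6.68 FPKM in crushed eyes, against 1.49, 1.51 and 1.65 FPKM in naive eyes. Neuropeptides moved in both directions. Somatostatin (SST), an inhibitory peptide of amacrine cells, was at 109.7, 112 and 78.4 FPKM in crushed and 30.99, 30.6 and 39.3 FPKM in naive eyes (log2 difference 1.55 ± 0.16, adjusted p = 0.00418). Gastrin-releasing peptide (GRP) fell to 1.48, 1.75 and 5.23 FPKM in crushed eyes, against 18.4, 14.2 and 17.99 FPKM in naive eyes, and contralateral eyes had 25.9, 20.3 and 21.9 FPKM, all above the naive range. The GRP difference was -2.55 ± 0.37 (adjusted p = 0.0119, and 0.0627 without naive replicate 3). Its second entry fell to 1.94, 1.94 and 1.62 FPKM in crushed eyes, against 5.96, 8.32 and 9.86 FPKM in naive eyes. Neuropeptide Y (NPY) was at 70.5, 57.6 and 122 FPKM in crushed and 25.5, 30.9 and 30.4 FPKM in naive eyes, but contralateral replicate 3 was as high as the highest crushed library with 122 FPKM, and the adjusted p was 0.12 with the letter as a covariate. In the list of neuropeptides and hormones 9 of 46 tested entries rose and 2 fell (median 0.21), and 7 rose and 2 fell in each letter B fit. The medians of the contralateral libraries were 0.30, 0.21 and 0.28, as high as that of the crushed eyes. The rises included 2 entries each of IGF2, NPY and the enkephalin precursor PENK, and 1 of SST.

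Proteases and their inhibitors moved together in part. MMP8, a collagenase stored by neutrophils in mammals, was at 71.2, 36.4 and 54.1 FPKM in crushed eyes, against 7.97, 7.51 and 13.3 FPKM in contralateral eyes and 5.34, 4.92 and 6.44 FPKM in naive eyes (log2 difference to naive 3.12 ± 0.23, adjusted p = 0.00111). MMP13, another collagenase, was at 21.8, 19.9 and 14.8 FPKM in crushed and 3.65, 3.02 and 4.72 FPKM in naive eyes (log2 difference 2.17 ± 0.19, adjusted p = 0.00202). The 2 abundant entries of MMP2, a gelatinase, went in opposite directions. One rose to 39.8, 14.2 and 26.2 FPKM in crushed eyes, against 2.62, 2.85 and 2.39 FPKM in naive eyes (log2 difference 3.01 ± 0.32, adjusted p = 0.0041). The other fell to 65.5, 59.96 and 51.02 FPKM in crushed eyes, against 75.7, 55.5 and 69.6 FPKM in contralateral eyes and 114, 124 and 124 FPKM in naive eyes, and its contralateral values overlap the crushed ones. MMP1, an interstitial collagenase, was at 2.25, 3.15 and 1.196 FPKM in crushed and 0.0994, 0.173 and 0.0993 FPKM in naive eyes (adjusted p = 0.0108, and 0.0576 without naive replicate 3). Of 48 tested entries of metalloproteinases and their inhibitors, 5 rose and 7 fell (median -0.19), 7 rose and 8 fell with crushed replicate 2 alone, and 5 rose and 9 fell with the covariate. The falls were 2 entries each of the membrane-type enzymes MMP14 and MMP17, and 1 each of MMP2, MMP23B and the inhibitor TIMP2.

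A2M, a broad protease trap of plasma, was at 92.4, 107 and 88.4 FPKM in crushed eyes, against 39.1, 45.4 and 33.5 FPKM in contralateral eyes and 23.8, 23.02 and 26.3 FPKM in naive eyes (log2 difference to naive 1.95 ± 0.11, adjusted p = 0.000377). The contralateral values of this A2M entry also lay above the naive range. Of 6 tested A2M entries 1 was called. Complement was mixed: C1QB, a chain of the C1q recognition complex, rose to 27.5, 25.9 and 18.4 FPKM in crushed eyes, against 10.96, 10 and 12.01 FPKM in naive eyes, while 2 tested entries of C3, the central complement protein, went opposite ways. One C3 entry was at 11.2, 6.16 and 10.4 FPKM in crushed and 2.57, 2.28 and 1.82 FPKM in naive eyes, and the other at 0.112, 0.0294 and 0.327 FPKM in crushed and 1.101, 1.62 and 3.08 FPKM in naive eyes. This second C3 entry was as low in contralateral eyes, at 0.05995, 0 and 0.102 FPKM. In the complement and coagulation list, 6 of 39 tested entries rose and 1 fell, with a median of 0.33, and the letter B fits gave 6 and 1 and 5 and 1. LEP, IGF2, STMN4, GAP43, SST, MMP8, MMP2, MMP13 and A2M kept their calls.

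Myeloid and granulocyte genes rose as a group. Of 46 tested entries 19 rose and 0 fell, against 2.6% higher among all entries, beside 1 that was lower at an unadjusted p under 0.05 in limma. Their median log2 difference was 0.70, it was 0.69 in crushed replicate 2 and 0.74 in the 2 crushed libraries with letter B, and -0.36, -0.27 and 0.14 in contralateral replicates 1, 2 and 3. With crushed replicate 2 alone 12 rose, and with the letter as a covariate 13 rose and 1 fell. The summed level of all 52 entries of the list was 436, 345 and 365 FPKM in crushed eyes, against 224, 213 and 304 FPKM in contralateral eyes and 289, 261 and 266 FPKM in naive eyes.

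The rises covered the NADPH oxidase with which phagocytes make reactive oxygen. NCF1, a cytosolic subunit, was at 8.82, 3.804 and 5.33 FPKM in crushed and 0.648, 0.863 and 0.6902 FPKM in naive eyes (log2 difference 2.32 ± 0.27, adjusted p = 0.00554). CYBB, the catalytic subunit, was at 11.1, 5.28 and 6.22 FPKM in crushed and 1.73, 2.78 and 2.57 FPKM in naive eyes. In both the lowest crushed value, in replicate 2, was above the highest naive value, as in every entry called higher. The signalling adaptor TYROBP was at 5.87, 5.01 and 7.95 FPKM in crushed and 1.22, 0.707 and 0.406 FPKM in naive eyes (log2 difference 2.43 ± 0.26, adjusted p = 0.00455). It was at 1.965 FPKM in contralateral replicate 1, above every naive value, and listed at 0 in contralateral replicates 2 and 3. With the letter as a covariate the adjusted p of TYROBP was 0.0542. Lysozyme (LYZ), an antibacterial enzyme, was at 28.1, 23.8 and 18.9 FPKM in crushed eyes, against 5.38, 6.24 and 15.4 FPKM in contralateral eyes and 5.87, 4.97 and 6.62 FPKM in naive eyes (log2 difference to naive 1.92 ± 0.17, adjusted p = 0.00202).

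Granulocyte and macrophage regulators rose too. SPI1, the PU.1 factor of the myeloid lineage, was at 4.704, 2.53 and 4.39 FPKM in crushed and 0.9, 0.803 and 0.8502 FPKM in naive eyes. CEBPE, a factor of late granulocyte maturation, was at 2.02, 1.27 and 1.55 FPKM in crushed and 0.223, 0.194 and 0.268 FPKM in naive eyes. Eosinophil peroxidase (EPX) was at 15.5, 13.6 and 19.2 FPKM in crushed eyes, against 4.34, 3.93 and 5.15 FPKM in contralateral eyes and 5.46, 4.44 and 7.53 FPKM in naive eyes, and its second called entry was at 16.3, 10.8 and 12.01 FPKM in crushed and 4.14, 3.75 and 5.04 FPKM in naive eyes. The integrin ITGAM, a chain of the complement receptor of phagocytes, was at 5.89, 4.63 and 4.74 FPKM in crushed and 1.07, 0.92 and 0.983 FPKM in naive eyes (log2 difference 1.90, adjusted p = 0.00127). The cathepsins CTSS and CTSK, IRF8 and FCER1G were not called in any entry, and C1QA averaged 20.1 FPKM in crushed and 10.8 FPKM in naive eyes (adjusted p = 0.179). The lymphocyte list gave no call in 16 tested entries in any of the 3 fits (1 higher at an unadjusted p under 0.05 in limma). RAG2, its most abundant entry, was at 2.27, 2.22 and 1.94 FPKM in crushed and 2.45, 2.38 and 2.38 FPKM in naive eyes.

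Further genes of granulocytes and host defence were among the largest rises of all entries. CAMP, the cathelicidin precursor, was at 4.15, 7.604 and 6.13 FPKM in crushed eyes, against 0.246, 0.782 and 2.69 FPKM in contralateral eyes and 0.128, 0 and 0.255 FPKM in naive eyes (log2 difference to naive 3.35 ± 0.25, adjusted p = 0.0012). PRTN3, a serine protease of neutrophil granules, was at 7.83, 2.48 and 9.97 FPKM in crushed and 0.481, 0.604 and 0.427 FPKM in naive eyes (log2 difference 2.67 ± 0.42, adjusted p = 0.0162, and 0.077 without naive replicate 3). LYG2, a goose-type lysozyme, was at 38.4, 20.9 and 35.7 FPKM in crushed and 3.78, 4.17 and 6.68 FPKM in naive eyes. IFITM2, an interferon-induced membrane protein, was at 13.3, 6.19 and 10.5 FPKM in crushed and 1.43, 0.545 and 1.43 FPKM in naive eyes. CAMP, LYG2 and IFITM2 kept their calls. The immunoglobulin entry IGKV1D-8 was high in the libraries with letter B, at 21.5, 3.54 and 5.62 FPKM in crushed eyes, against 0.657, 0.696 and 11.7 FPKM in contralateral eyes and 0.3401, 1.48 and 0.679 FPKM in naive eyes, and its adjusted p was 0.359 with the letter as a covariate. Outside these groups, UMOD, a symbol carried by 12 entries, was at 3.97, 7.73 and 4.95 FPKM in crushed and 0.0477, 0.0415 and 0 FPKM in naive eyes in 1 entry (log2 difference 3.47 ± 0.24, adjusted p = 0.00104), and 1 ACYP1 entry was at 2.49, 3.94 and 2.08 FPKM in crushed eyes and listed at 0 in all naive and contralateral libraries. Both kept their calls.

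The genes that define the axotomised neurons went the other way. Of 33 tested RGC marker entries 10 fell and 0 rose, against 3.79% lower among all entries, and 0 were higher also at an unadjusted p under 0.05 in limma. The median log2 difference was -0.34, it was -0.23 in crushed replicate 2 and -0.51 in the 2 crushed libraries with letter B, and 0.16, 0.24 and -0.06 in contralateral replicates 1, 2 and 3. With crushed replicate 2 alone 11 fell and 1 rose, and with the letter as a covariate 6 fell. The summed level of the list was 454, 475 and 470 FPKM in crushed eyes, against 700, 725 and 632 FPKM in contralateral eyes and 610, 589 and 589 FPKM in naive eyes.

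RBPMS2, an RNA-binding protein that marks RGCs in the retina, was at 36.6, 23.1 and 31.7 FPKM in crushed eyes, against 65.8, 90.4 and 83.7 FPKM in contralateral eyes and 73.9, 78.5 and 68.98 FPKM in naive eyes (log2 difference to naive -1.29 ± 0.16, adjusted p = 0.00756). Its homeolog was at 45.02, 33.99 and 39.9 FPKM in crushed eyes, against 111, 116 and 93.2 FPKM in contralateral eyes and 75.6, 77.5 and 79.4 FPKM in naive eyes. In both entries no crushed library reached a naive or contralateral one. SNCG, gamma-synuclein, a protein concentrated in RGC bodies and axons, was at 4.04, 5.68 and 6.82 FPKM in crushed eyes, against 18.0, 14.5 and 19.2 FPKM in contralateral eyes and 11.6, 13.8 and 14.99 FPKM in naive eyes. Its difference was -1.23 ± 0.19 (adjusted p = 0.0144, and 0.0756 without naive replicate 3). The POU-domain factors that specify RGCs were lower as well: POU4F3 was at 7.401, 6.35 and 7.43 FPKM in crushed eyes, against 19.9, 17.2 and 18.9 FPKM in contralateral eyes and 13.6, 14.5 and 13.9 FPKM in naive eyes. POU4F1 was at 0.266, 0.488 and 0 FPKM in crushed and 1.77, 1.598 and 1.32 FPKM in naive eyes (log2 difference -1.51 ± 0.27, adjusted p = 0.0241), but contralateral replicate 3 was also low with 0.388 FPKM and the adjusted p was 0.44 with the letter as a covariate. The same held for ISL2, a LIM-homeodomain factor of RGC subtypes, at 5.21, 5.31 and 5.78 FPKM in crushed eyes, against 15.04, 25.3 and 6.94 FPKM in contralateral eyes and 14.01, 11.9 and 14.6 FPKM in naive eyes, with an adjusted p of 0.00264 and of 0.23 with the covariate.

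Not all RGC markers fell. POU4F2 averaged 0.551 FPKM in crushed and 1.8 FPKM in naive eyes (adjusted p = 0.0633), and THY1, a surface protein of RGCs and other cells, 18 and 16.7 FPKM (adjusted p = 0.531). The vesicular glutamate transporter SLC17A6 averaged 5.7 FPKM in crushed and 5.02 FPKM in naive eyes (adjusted p = 0.398). TUBB3 and ELAVL4, which other neurons also express, differed by at most 0.16 on the log2 scale in their abundant entries. Of the named entries in this group, RBPMS2 kept its call in both letter B fits and without any single library, as did INA among the neurofilament genes.

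**Figure D2:**
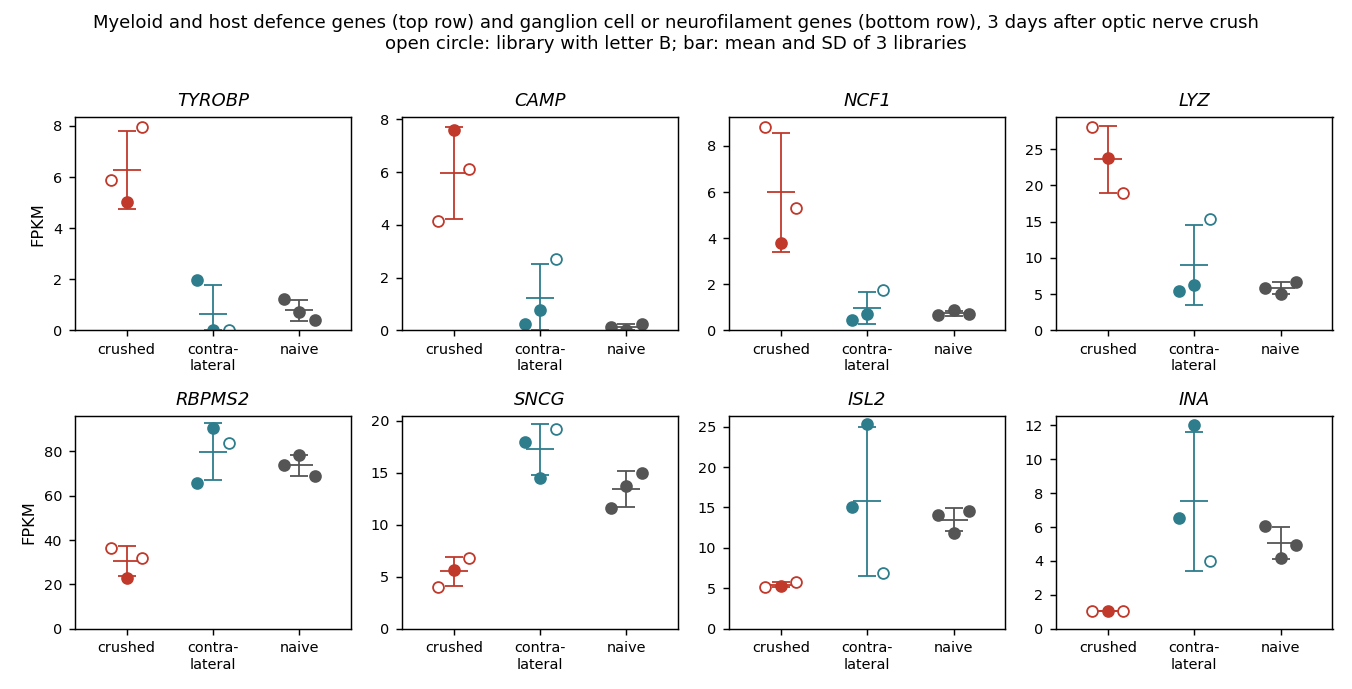
FPKM of 4 genes of myeloid cells and host defence (top) and of 4 genes of RGCs and neuronal filaments (bottom) in each library of the crushed, contralateral and naive eyes at 3 days (1 entry per gene, linear axis from 0), with open circles for libraries with letter B and bars for the mean and SD of 3 libraries. The crushed values lie above all naive values in the top row and below all naive values in the bottom row, and for ISL2 contralateral replicate 3, at 6.94 FPKM, lies near the crushed libraries.

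Glial genes rose in some members. APOE, the lipid carrier secreted by Müller glia and macrophages, was at 11.3, 14.97 and 16.9 FPKM in crushed eyes, against 3.24, 2.43 and 2.11 FPKM in contralateral eyes and 3.85, 1.74 and 2.904 FPKM in naive eyes (log2 difference to naive 2.19 ± 0.25, adjusted p = 0.00553). The more abundant APOE entry was at 47.4, 23.3 and 48.7 FPKM in crushed and 10.9, 12.5 and 12.4 FPKM in naive eyes. Nestin (NES), an intermediate filament of progenitors and reactive glia, was at 12.6, 15.2 and 16.1 FPKM in crushed eyes, against 3.94, 4.001 and 3.82 FPKM in contralateral eyes and 4.995, 7.02 and 6.36 FPKM in naive eyes (log2 difference to naive 1.19 ± 0.15, adjusted p = 0.0075). The contralateral values of NES lay below the naive range. AQP4, the water channel of glial endfeet, fell to 1.701, 1.53 and 1.92 FPKM in crushed eyes, against 3.77, 5.26 and 4.43 FPKM in naive eyes, and contralateral eyes were also low at 2.08, 1.58 and 3.19 FPKM. Of 44 tested entries for Müller glia and astrocytes 6 rose and 1 fell (median 0.12), and the letter B fits each gave 5 higher and 3 lower. APOE and NES kept their calls. VIM, the main glial filament gene in this list, averaged 225 FPKM in crushed and 201 FPKM in naive eyes in its most abundant entry (adjusted p = 0.699), and the Müller cell enzymes GLUL and RLBP1 were not called.

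Among myelin genes MBP, found in both central and peripheral myelin, fell to 6.63, 4.92 and 12.9 FPKM in crushed eyes, against 24.9, 26.4 and 21.8 FPKM in naive eyes (adjusted p = 0.024, and 0.0979 without naive replicate 2). MOG, a protein of central myelin, averaged 9.44 FPKM in crushed and 9.09 FPKM in naive eyes in 1 entry (adjusted p = 0.872). Of 21 tested entries 1 rose and 4 fell (median -0.21), 5 fell with crushed replicate 2 alone, and 1 rose and 4 fell with the covariate. The rise was 1 MAG entry, at 0.3904, 0.682 and 0.6496 FPKM in crushed and 0, 0 and 0.0719 FPKM in naive eyes, with an adjusted p of 0.041 and of 0.0654 with crushed replicate 2 alone.

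Matrix and muscle genes formed the largest groups of falls. Of 39 tested entries for fibrillar matrix 22 fell and 0 rose (0 also at an unadjusted p under 0.05 in limma), with a median of -0.60. Lumican (LUM), a proteoglycan that spaces collagen fibrils in cornea and sclera, was at 16.1, 16.1 and 17.2 FPKM in crushed eyes, against 21.6, 13.3 and 28.3 FPKM in contralateral eyes and 45.7, 57.5 and 62.2 FPKM in naive eyes (log2 difference to naive -1.70 ± 0.12, adjusted p = 0.00111). Decorin (DCN), a related proteoglycan, was at 27.1, 31.7 and 30.1 FPKM in crushed eyes, against 38.9, 27.8 and 47.1 FPKM in contralateral eyes and 73.9, 94.7 and 94.1 FPKM in naive eyes (log2 difference to naive -1.54 ± 0.12, adjusted p = 0.00156). In both genes the contralateral eyes lay below the naive range too, but this difference was not called (adjusted p = 0.0976 for LUM and 0.087 for DCN by limma). Fibrillin (FBN1), which forms microfibrils, was at 11.5, 13.1 and 9.13 FPKM in crushed eyes, against 33.6, 35.8 and 30.9 FPKM in naive eyes, and at an intermediate 23.03, 19.4 and 25.7 FPKM in contralateral eyes. The list's median was -0.44, -0.57 and -0.75 in contralateral replicates 1, 2 and 3. None of its entries was called between crushed and contralateral eyes, in a test that called 0.19% of all entries. The crushed and contralateral values overlapped in LUM and DCN but not in FBN1 (log2 difference -0.99, adjusted p = 0.133 by limma). With crushed replicate 2 alone 18 fell and 1 rose, and with the letter as a covariate 19 fell and 2 rose. TNMD, a membrane protein of tendon and ligament cells, belonged to the largest falls of all entries, at 8.53, 7.45 and 7.95 FPKM in crushed eyes, against 16.4, 5.19 and 17.4 FPKM in contralateral eyes and 40.8, 47.1 and 44.98 FPKM in naive eyes (log2 difference to naive -2.40 ± 0.10, adjusted p = 9.54e-05). LUM, DCN, FBN1, COL12A1 and TNMD kept their calls.

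Skeletal muscle genes, of which 20 of 41 tested entries fell and 1 rose, had a median of -0.78. Their median was -0.95 in crushed replicate 2, and -0.14, -0.39 and -0.28 in contralateral replicates 1, 2 and 3. Muscle glycogen phosphorylase (PYGM) fell to 4.54, 4.89 and 3.504 FPKM in crushed eyes, against 12.4, 9.56 and 10.3 FPKM in contralateral eyes and 14.2, 12.4 and 14.9 FPKM in naive eyes (log2 difference to naive -1.58 ± 0.14, adjusted p = 0.00233). Calsequestrin (CASQ1), the calcium store protein of fast muscle, fell to 38.1, 26.8 and 28.6 FPKM in crushed eyes, against 51.9, 42.5 and 52.2 FPKM in contralateral eyes and 83.7, 73.3 and 86.98 FPKM in naive eyes. Both kept their calls. The muscle enolase ENO3 fell to 23.8, 26.04 and 10.6 FPKM in crushed eyes, against 99.4, 76.8 and 111 FPKM in naive eyes (log2 difference -2.30 ± 0.32, adjusted p = 0.0101). The exception among muscle genes was desmin (DES), at 70.7, 36.9 and 62.03 FPKM in crushed and 29.03, 23.8 and 25.1 FPKM in naive eyes. With crushed replicate 2 alone 22 fell, and with the letter as a covariate 23 fell and 2 rose. Summed over the list, muscle genes made 4500, 3360 and 4010 FPKM in crushed eyes, against 6030, 4690 and 5580 FPKM in contralateral eyes and 6680, 5370 and 7370 FPKM in naive eyes.

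Several falls, some of them among the largest, were about as low in the unoperated eye. CYP1A1, the oxidase induced through the aryl hydrocarbon receptor, was at 0.227, 0.333 and 1.59 FPKM in crushed eyes, against 0.09698, 0.128 and 0.298 FPKM in contralateral eyes and 4.34, 8.79 and 3.71 FPKM in naive eyes. It was called in crushed against naive eyes (log2 difference -2.41 ± 0.44, adjusted p = 0.0248) and in contralateral against naive eyes (log2 difference -3.10, adjusted p = 0.0382), comparisons that share the naive libraries. PHYH, a peroxisomal enzyme of phytanic acid breakdown, had the largest fall of the named entries, at 0.561, 0.515 and 1.52 FPKM in crushed eyes, against 0.375, 0.159 and 3.28 FPKM in contralateral eyes and 10.3, 12.7 and 7.52 FPKM in naive eyes (log2 difference to naive -3.02 ± 0.30, adjusted p = 0.00333), and kept its call. MUC16, a mucin of the ocular surface, was at 2.34, 1.28 and 6.28 FPKM in crushed eyes, against 1.204, 0.807 and 4.02 FPKM in contralateral eyes and 15.1, 22.8 and 17.8 FPKM in naive eyes. GAD1, which makes the transmitter GABA in amacrine and horizontal cells, was at 1.15, 0.753 and 1.196 FPKM in crushed eyes, against 0.553, 0.3904 and 1.34 FPKM in contralateral eyes and 3.15, 4.201 and 3.27 FPKM in naive eyes. For these 4 entries the crushed and contralateral eyes differed by 0.69 or less on the log2 scale, and none was called between them. In contralateral against naive eyes PHYH, MUC16 and GAD1 were not called (adjusted p = 0.116, 0.0676 and 0.0801 by limma). Against naive eyes, 1 of 4 tested entries of CYP1A1, 1 of 3 of PHYH and 1 of 4 of GAD1 were called. Of 49 tested entries for cell division 7 fell and 0 rose (1 higher at an unadjusted p under 0.05 in limma), among them MCM4 at 4.87, 5.42 and 4.3 FPKM in crushed eyes, against 4.099, 3.29 and 3.19 FPKM in contralateral eyes and 8.06, 9.22 and 9.53 FPKM in naive eyes. The group differed with the letter, with a median of 0.16 in crushed replicate 2 and -0.43 in the libraries with letter B, and 1 entry fell with crushed replicate 2 alone, while 3 rose and 3 fell with the covariate.

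In some called entries the libraries with letter B stood apart. The ribosomal protein entry RPL37 was at 26.8, 74.5 and 26.3 FPKM in crushed eyes, against 68.2, 165 and 26.3 FPKM in contralateral eyes and 126, 98.7 and 149 FPKM in naive eyes. Its lowest values were in the 3 libraries with letter B, and its adjusted p was 0.043, but 0.401 with the letter as a covariate. C21orf33 was at 1.43, 4.62 and 0.341 FPKM in crushed eyes, against 6.57, 24.7 and 0.449 FPKM in contralateral eyes and 18.4, 10.2 and 13.7 FPKM in naive eyes (adjusted p 0.0339, and 0.478 with the covariate). CRYGB, a gamma crystallin whose symbol 22 entries carry, was at 3.24, 12.6 and 1.12 FPKM in crushed eyes, against 18.5, 24.3 and 1.58 FPKM in contralateral eyes and 36.4, 31.8 and 20.7 FPKM in naive eyes (adjusted p 0.0489, and 0.261 with the covariate). COX8A, a subunit of cytochrome oxidase, was high where these were low, at 99.4, 44.1 and 101 FPKM in crushed eyes, against 33.9, 35.9 and 111 FPKM in contralateral eyes and 25.1, 29.9 and 35.3 FPKM in naive eyes (adjusted p 0.0452, and 0.189 with the covariate). LIX1L, one of the largest falls, was at 0, 1.69 and 0.141 FPKM in crushed eyes, against 1.81, 16.1 and 0 FPKM in contralateral eyes and 7.21, 3.499 and 5.05 FPKM in naive eyes, lowest where the letter is B (adjusted p = 0.0315, and 0.605 with the covariate). Among the largest falls were also genes that did not divide by the letter alone. HIST1H2AJ, a histone gene, was at 0, 0.559 and 0 FPKM in crushed eyes, against 0, 12.7 and 0 FPKM in contralateral eyes and 8.26, 2.05 and 4.72 FPKM in naive eyes, and contralateral replicate 1, also listed at 0, carries no letter (adjusted p = 0.0173, and 0.428 with the covariate). CAMK2N1, an inhibitor of the calcium/calmodulin kinase CaMKII, was at 1.81, 1.66 and 0 FPKM in crushed eyes, against 2.67, 38.2 and 0.662 FPKM in contralateral eyes and 10.04, 7.63 and 8.77 FPKM in naive eyes. Its adjusted p was 0.0283, 0.509 with the covariate and 0.00518 with crushed replicate 2 alone. The call counts of the ribosomal proteins (4 higher, 5 lower of 117), the respiratory chain (3 and 2 of 84) and cholesterol synthesis (0 and 7 of 39, with 1 higher at an unadjusted p under 0.05 in limma) changed with the covariate to 3 higher among ribosomal proteins, 1 lower in the respiratory chain, and 1 higher and 4 lower in cholesterol synthesis, and with crushed replicate 2 alone to 2 higher, 1 lower and 1 lower. Among all tested entries 2.6% were called higher and 3.79% lower without the covariate, and the ribosomal and respiratory chain counts lay near these shares. What letter B stands for was not tested. C8orf4 and SMIM10, the other largest falls without a group, kept their calls. C8orf4 was at 0.914, 1.32 and 0.761 FPKM in crushed and 7.34, 7.69 and 6.95 FPKM in naive eyes. Its contralateral values of 2.2, 5.05 and 0.668 FPKM all lay below the naive range, with replicate 3 below every crushed value. SMIM10 was listed at 0 in all crushed libraries and at 1.92, 1.66 and 3.83 FPKM in naive eyes. Contralateral eyes had 0.925, 5.88 and 2.53 FPKM of SMIM10.

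**Figure D3:**
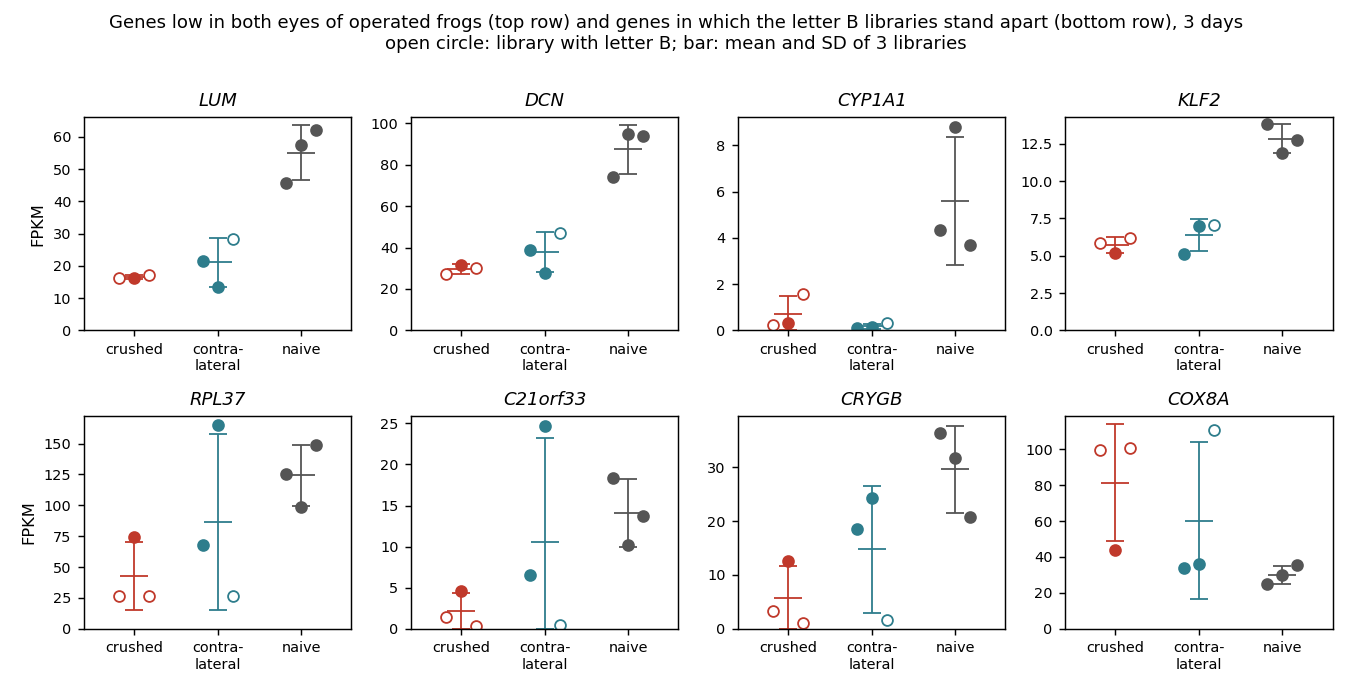
FPKM of 4 genes that were low in both eyes of operated frogs (top) and of 4 genes in which the libraries with letter B, drawn as open circles, stand apart (bottom), in each library of the crushed, contralateral and naive eyes at 3 days (1 entry per gene, linear axis from 0, bars for the mean and SD of 3 libraries, drawn down to 0 at most). In the top row crushed and contralateral values lie below all naive values, and in the bottom row contralateral replicate 3 lies with crushed replicates 1 and 3, as for RPL37 at 26.3 FPKM.

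Photoreceptor genes were called in both directions, beside 2.6% higher and 3.79% lower among all tested entries. Of 59 tested entries for rod and cone phototransduction 2 rose and 4 fell, with a median of 0.02, which was -0.18 in crushed replicate 2 and 0.06 in the libraries with letter B. The list gave 1 rise and 4 falls with crushed replicate 2 alone and 7 falls with the covariate. OPN1LW, the red cone opsin, fell to 540.3, 669 and 543 FPKM in crushed eyes, against 765, 887 and 696 FPKM in contralateral eyes and 928, 900 and 928 FPKM in naive eyes (log2 difference to naive -0.66 ± 0.14, adjusted p = 0.0375). ABCA4, the transporter of retinoids in outer segments, fell to 489.8, 490 and 580.2 FPKM in crushed eyes, against 853, 783 and 762 FPKM in naive eyes. GNGT2, a transducin subunit of cones, was at 135, 121 and 119 FPKM in crushed eyes, against 113, 113 and 192 FPKM in contralateral eyes and 65.9, 80.2 and 70.3 FPKM in naive eyes, so both eyes of operated frogs were high. Of 55 tested entries for bipolar, horizontal and amacrine cells 2 fell (GAD1 and CALB1) and 0 rose, beside 2 higher at an unadjusted p under 0.05 in limma, with 2 falls for crushed replicate 2 alone and 3 rises and 2 falls with the covariate. In the pigment epithelium and visual cycle list 1 of 46 rose and 4 fell, and 10 fell in each letter B fit. SERPINF1, the pigment epithelium-derived factor, was at 27.6, 18.8 and 24.2 FPKM in crushed eyes, against 27.1, 19.3 and 36.8 FPKM in contralateral eyes and 48.7, 45.8 and 46.3 FPKM in naive eyes. Lens genes followed the libraries, with medians of -0.62 in crushed replicate 2, 0.48 in the crushed libraries with letter B and -0.16, -0.54 and 0.29 in contralateral replicates 1, 2 and 3, and 1 of 60 tested entries rose and 4 fell, against 18 falls with crushed replicate 2 alone and 9 with the letter as a covariate. The corneal and skin epithelium list had 4 falls and 0 rises in 67 (2 higher at an unadjusted p under 0.05 in limma), with a median of -0.10 in crushed replicate 2 and -0.78 in the libraries with letter B, and gave 3 rises and 2 falls with crushed replicate 2 alone and 1 rise and 2 falls with the covariate.

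**Figure D4:**
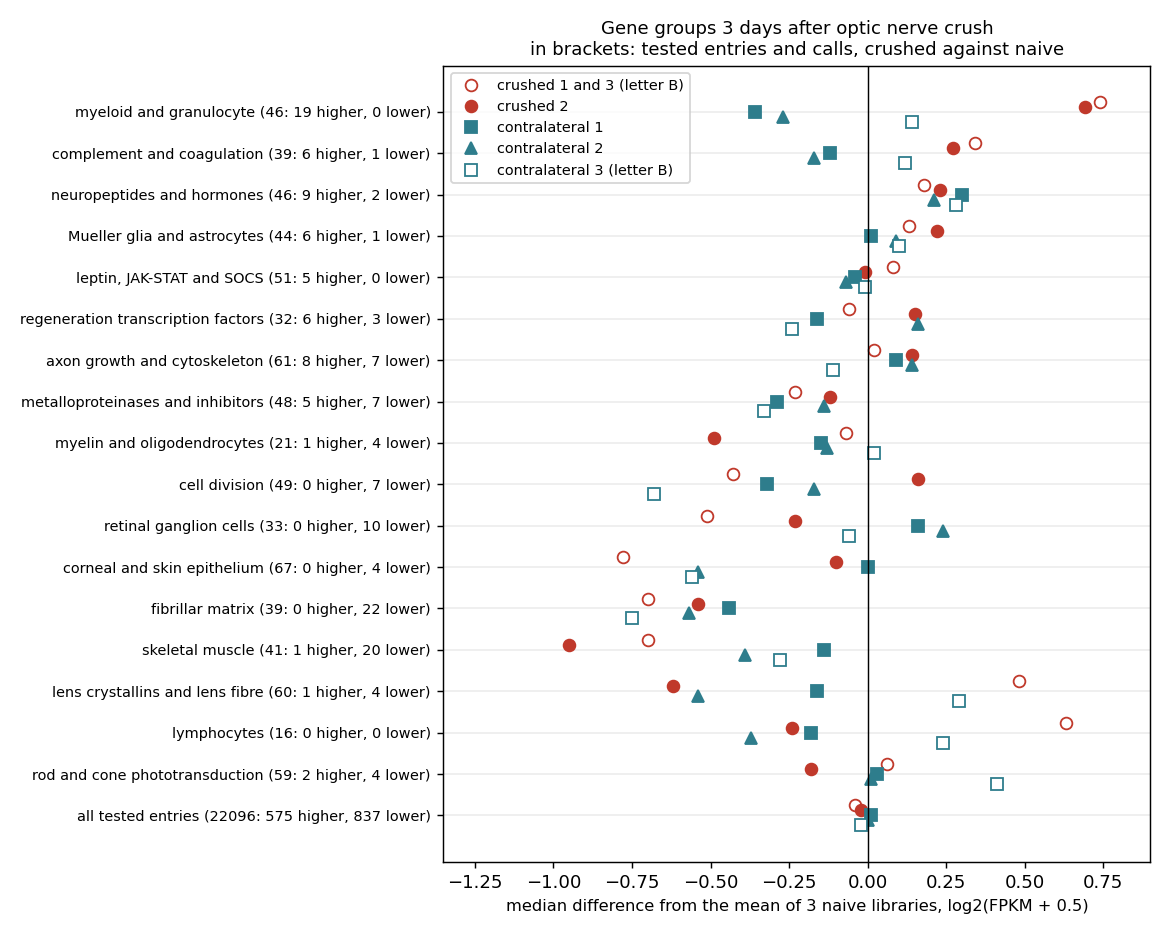
Median difference from the mean of the 3 naive libraries, on the log2(FPKM + 0.5) scale, of the tested entries of 17 gene groups and of all entries, for crushed replicate 2, the 2 crushed libraries with letter B and each contralateral library at 3 days. The myeloid group is above 0 in all crushed libraries at 0.69 and 0.74, the fibrillar matrix and skeletal muscle groups are below 0 in all operated frogs, and lens and cell division differ in sign between crushed replicate 2 and the libraries with letter B.

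The counts of the remaining lists stand beside 2.6% higher and 3.79% lower among all tested entries. Antigen presentation and interferon genes had 3 rises and 0 falls in 46 tested entries (5 lower at an unadjusted p under 0.05 in limma). IFIT5, an interferon-induced RNA-binding protein, was at 2.27, 1.68 and 1.43 FPKM in crushed and 0.26, 0.527 and 0.433 FPKM in naive eyes. Its contralateral values of 1.67, 0.753 and 1.26 FPKM also lay above the naive range, with replicate 1 within the crushed range. Each letter B fit gave 1 rise and 10 falls in this list. Among clock genes PER3, a repressor of the circadian loop, rose to 28.1, 20.2 and 22.2 FPKM in crushed eyes, against 23.4, 20.01 and 20.4 FPKM in contralateral eyes and 14.8, 13.2 and 11.6 FPKM in naive eyes, and 2 of 49 entries fell, as with crushed replicate 2 alone, against 1 rise and 1 fall with the covariate. Glycolysis and hypoxia genes had 1 rise and 5 falls in 56, 4 falls with crushed replicate 2 alone, and 2 rises and 5 falls with the covariate. Its rise was 1 entry of HK2, a hexokinase, at 2.44, 0.953 and 1.77 FPKM in crushed and 0.196, 0.192 and 0.196 FPKM in naive eyes (log2 difference 1.62 ± 0.27, adjusted p = 0.0191, and 0.0865 without naive replicate 2). Of 4 tested HK2 entries 1 rose and 1 fell, so the copies under this symbol did not change together. Heat shock proteins had 1 rise and 1 fall in 45, but 3 falls with crushed replicate 2 alone and 4 with the covariate. Aminoacyl-tRNA synthetases had 2 rises and 2 falls in 29, and 1 of each in both letter B fits, and red cells had 1 rise in 23 in all 3 fits. There were 2 falls among 21 entries of thyroid hormone genes, 1 among 42 of DNA and histone methylation, 2 among 33 of endothelium and pericytes and 1, CYP1A1, among 16 of the aryl hydrocarbon response. These lists held no rises, against 0, 6, 0 and 2 higher entries at an unadjusted p under 0.05 in limma, and red cells held no falls, against 5 lower ones. Thyroid hormone genes gave 1 fall with crushed replicate 2 alone and 1 rise with the covariate, and DNA and histone methylation 2 rises and 3 rises in these fits. Endothelium and pericytes gave 5 falls and 1 fall in them, and the aryl hydrocarbon response 1 fall in each. The collagen chaperone SERPINH1 was the fall among the heat shock proteins and kept its call, at 3.86, 5.36 and 4.02 FPKM in crushed eyes, against 6.12, 5.301 and 4.87 FPKM in contralateral eyes and 12.3, 10.2 and 11.3 FPKM in naive eyes.

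The direct test of crushed against contralateral eyes held 16 of the named entries that rose against naive eyes, in a comparison that called 0.154% of all entries higher. The named entries were picked with the same crushed libraries, so a larger share among them is partly built in and is not a separate result. Both kinds of eye come from operated frogs, but the fit was unpaired. With the replicate block, 149 entries were called in place of 42. LEP had a log2 difference of 4.50 to the contralateral eye (adjusted p = 0.000437), IGF2 3.82 (adjusted p = 0.00091) and ATF3 3.43 (adjusted p = 0.00849). STMN4 differed by 1.86 (adjusted p = 0.0062) and NES by 1.77 (adjusted p = 0.0096). These growth and stress genes were thus higher in the crushed eye than in either kind of uncrushed eye. GAP43 missed the threshold with 1.23 (adjusted p = 0.0688), as did ARC with 1.64 (adjusted p = 0.091). The second LEP entry, which did not pass against naive eyes, was higher than in contralateral eyes by 2.13 (adjusted p = 0.0217). Among RGC genes, POU4F3 was lower in crushed than in contralateral eyes by -1.34 (adjusted p = 0.0182) and the second RBPMS2 entry by -1.42 (adjusted p = 0.0296). In the myeloid list 3 entries passed, among them both called EPX entries with 1.73 and 1.55 (adjusted p = 0.0214 and 0.0451). No entry of the fibrillar matrix list was called here, by limma, although 22 were lower than in naive eyes.

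Set against naive eyes, the changes at 3 days were compared with those at later times through the crushed eyes alone, since the naive libraries cancel. The crushed libraries at 3 days do not cancel. The named entries were picked with them, so a larger share of differences among named entries is partly built in. At 11 days 285 of 22064 entries (1.29%) differed from 3 days, 74 higher (0.335%) and 211 lower (0.956%) at 3 days, and at 3 weeks, where no crushed library carries letter B, 3145 of 22109 (14.2%), 1369 higher (6.19%) and 1776 lower (8.03%) at 3 days. Among the 12 largest rises, 8 were higher at 3 days than in crushed eyes at 11 days, where the 3 libraries carry the letter B in the same numbers. MMP8 averaged 53.9 FPKM at 3 days, 9.15 FPKM at 11 days, 6.85 FPKM at 3 weeks and 5.56 FPKM in naive eyes. UMOD averaged 5.55 FPKM at 3 days and 0.0656 FPKM at 11 days. LEP was not among the 8, with 13.5 FPKM at 3 days, 22.5 FPKM at 11 days and 10.5 FPKM at 3 weeks. Across the 49 named entries that rose, 12 were higher at 3 days than at 11 days and 4 were lower. GAP43 was among the 4, with 106 FPKM at 3 days, 326 FPKM at 11 days and 142 FPKM at 3 weeks (log2 difference of 3 days minus 11 days -1.63, adjusted p = 0.00985), and SST another, with 100 FPKM at 3 days and 475 FPKM at 11 days. A2M and SOX11 were the other 2. Of the 71 named entries that fell, 10 were lower at 3 days than at 11 days.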

How the data were processed

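RNA was sequenced from pools of 6 whole eyes, with 3 pools per group. The authors deposited FPKM per gene model, which they made by aligning reads to the Xenbase v9.1 genome with Bowtie2 2.2.9 and TopHat2 2.1.1 against the Mayball models and scaling between libraries with CuffDiff2, a part of Cufflinks. FPKM hold no read counts, so the depth behind a value is unknown and no counting interval was given. Here limma 3.58.1 (R 4.3.3) was applied to log2(FPKM + 0.5) with its trend option, for entries whose average reached 0.45 FPKM in either group, with Benjamini-Hochberg adjustment over all entries tested and calls at an adjusted p of at most 0.05. Fold changes are on this scale, which understates those of low genes. Each replicate is a pool, and p-values measure only the spread between these pooled libraries, which may be partly technical. Exact zeros are given as listed at 0.

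Named entries are the 12 largest rises and 12 largest falls among called entries with a symbol, a mean of at least 1 FPKM and crushed and naive values that do not overlap, and the called entries with the largest differences, up to 4 and 1 per symbol, in each of 34 gene lists, or the 2 most abundant where none was called. Other entries named were chosen after their values were seen. The groups, lists and genes were chosen with earlier results of these data known. Symbols are those of the files. Alternatives covered scaling, filters, pseudocounts, the replicate block, letter B, library weights and each library left out. Some entries that the rule named are not reported here.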

Additional observations from a re-analysis of the deposited data

Results flagged for a closer look

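The change from naive eyes differed between crushed and contralateral eyes at 3 days by limma's test of the difference, crushed minus contralateral on the log2 scale, in the following 14 named entries. These were LEP with 4.50, IGF2 3.82, ATF3 3.43, UMOD 3.41, MMP2 2.79, ACYP1 2.70, MMP8 2.42, DDIT3 2.35, APOE 2.26, SOCS3 2.11, STMN4 1.86, NES 1.77, MMP13 1.62 and A2M 1.28. In all 14 every crushed library was above every contralateral library. These same libraries gave the calls, so that separation is largely built in and is not a separate result.

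The change also differed between 3 days and later times in crushed eyes, by the same test among the 12 largest rises and 12 largest falls. The log2 difference of 3 days minus 11 days was 3.38 for UMOD, 2.71 for MMP2, 2.61 for PRTN3, 2.50 for CAMP, 2.49 for IFITM2, 2.46 for MMP8, 2.09 for LYG2 and 1.39 for IGF2. It was -3.65 for HIST1H2AJ, -2.98 for C21orf33, -2.01 for C8orf4 and -1.89 for SMIM10. Of 3 days minus 3 weeks, it was 3.50 for UMOD, 2.98 for MMP8, 2.93 for IGKV1D-8, 2.65 for PRTN3, 2.62 for MMP2, 2.47 for IFITM2, 2.13 for ACYP1, 2.03 for CAMP, 1.87 for IGF2 and 1.11 for ATF3. It was -2.84 for LIX1L, -2.76 for SMIM10, -2.69 for C21orf33, -2.66 for HIST1H2AJ, -2.49 for CAMK2N1, -1.99 for GRP, -1.76 for TNMD and -1.69 for C8orf4. Letter B is carried by 2 of the 3 crushed libraries at 3 days and at 11 days and by none at 3 weeks, so time and letter cannot be told apart in the comparison with 3 weeks.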

How the results depend on the processing

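None of the 120 called named entries changed direction under an alternative that tested it. Of the 2 that were not called, CD4 (-0.19) was at 0.10 without crushed replicate 2 and 0.02 with library weights, and RAG2 (-0.14) at 0.06 with letter B as a covariate and the contralateral libraries in the fit. The 1412 calls of crushed against naive eyes (575 higher, 837 lower) became 517 (210 and 307) with the replicate block, 2444 (1068 and 1376) with all 7 eye groups in the fit, 649 (191 and 458) with letter B as a covariate among the 6 libraries, and 5277 (2157 and 3120) with library weights, and 347 were higher with crushed replicate 2 alone. Leaving out 1 library gave 194 to 5960 calls, 91 to 2637 higher and 103 to 3323 lower. Other scalings, filters and pseudocounts gave 1275 to 1402 calls. The 42 calls against contralateral eyes (34 and 8) became 149 (100 and 49) with the replicate block and 363 (243 and 120) with letter B as a covariate, and 2 to 90 (2 to 74 and 0 to 16) without 1 library. Both covariate fits that include contralateral libraries were chosen after seeing the data. The cause of these shifts was not tested. For equal replicate numbers, deviations from the group mean correlated at r = 0.019, -0.128 and 0.017 between crushed and naive libraries, which hold different frogs. Between crushed and contralateral libraries r was -0.198, 0.541 and 0.667. Crushed replicate 1 carries letter B and contralateral replicate 1 does not, so letter and frog pool cannot be told apart in these values. They do not settle whether replicate numbers pair the 2 eyes. Of the 120 called named entries, 75 kept their call with the block and 42 to 120 without 1 library.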

Other observations

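The test of crushed against contralateral eyes also called entries outside the naming rule, given here with their differences. On the log2 scale, crushed minus contralateral, the higher entries were CDA 2.49, ANKRD1 2.45, CEACAM8 2.23, ABCB1 2.13, ECM1 1.95, BTG4 1.82, FLNC 1.58, PRG4 1.51 and GADD45G 1.45, and second entries of ATF3 with 3.01, IGF2 2.21, DDIT3 1.60, STMN4 1.55, NES 1.49 and SOCS3 1.31. ECM1 was at 31.5, 24.5 and 31.6 FPKM in crushed eyes, against 9.04, 9.59 and 9.51 FPKM in naive eyes. The lower entries were KCNIP3 -1.53, FXYD6 -1.37, CPNE4 -1.05 and FAAH -0.99, and a second PYGM entry with -1.18 and a second GRP entry with -2.64. KCNIP3, a calcium-binding partner of potassium channels, was at 16.8, 13.1 and 15.8 FPKM in crushed eyes, against 42.7, 43.2 and 40.4 FPKM in naive eyes. Of these, BTG4 did not pass against naive eyes (adjusted p = 0.0655 by limma).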
